A study of Mus musculus with 2 samples.

Results

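The MYC proteins and the partners that share MAX with them were followed through 3402 single cells of a mouse bone marrow pool. The 7 genes are Mycn and Myc, their obligate partner Max, the repressors Mxd4, Mxi1 and Mnt, and Mga. They were taken by name, and the set was chosen by earlier results of these same data: the level of Mycn in cells carrying the GFP reporter, and the levels of the members by cell cycle transcripts. Those contrasts are therefore described here and support nothing. All 7 of 7 were among the 28205 gene rows of both libraries.

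The pool was made of 2 kinds of cells. Live GFP+ cells, sorted on GFP alone, came from the lineage-depleted marrow of Mds1-GFP/+ Flt3-Cre mice, which carry an Mds1 allele with a floxed IRES-GFP-polyA cassette, Mds1 being a part of the Mecom locus, and a Cre named for Flt3. Long-term hematopoietic stem cells (LT-HSCs) of wild-type mice, sorted as Lin-cKit+Sca+CD48-CD150+ (the SLAM gate), were added to them. Strain background, age and the number of mice are not given in the sources used here. Transcripts were captured by inDrops, which tags each molecule with a droplet barcode and a unique molecular identifier (UMI). Cells are called reporter cells where at least 1 GFP UMI was counted: 71 cells, 23 in aliquot 1 and 48 in aliquot 2, against 46 GFP cells stated in the labels. Of the 71, 41 held 1 GFP UMI. Some reporter cells may be wild-type cells with free GFP RNA in their droplet, which was not tested. The other 3331 kept cells are mostly wild-type SLAM cells, but may include GFP-sorted cells whose reporter was not captured. Genotype, sort and source go together and cannot be told apart. There is 1 pool and no replicate, and the aliquots share their cells' source.

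MYC proteins bind DNA only as a pair with MAX, at E-box sequences with the core CACGTG, and raise transcription of genes for ribosome assembly, nucleotide and polyamine synthesis and cell growth. MXD and MNT proteins compete for MAX and recruit SIN3 repressor complexes to the same sites. In mouse marrow, Myc and Mycn together are needed for the survival and self-renewal of hematopoietic stem cells, and Mycn is known for its high transcript level in the most dormant of them.

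The kept cells held 5668067 UMIs. All 16 genes of the LT-HSC marker list were detected, and together stood at 2445 CPM (UMIs per 1000000; 95% interval, counting error only, 2404 to 2486). The cells fell into 9 clusters, of which cluster 0 (746 cells) was LT-HSC-like, with 13 of the 16 markers at least 2-fold above all other cells. Clusters 7 and 8, with 67 cells, were led by granulocyte, basophil and monocyte genes that the lineage depletion and SLAM gate should remove. They also had 14 and 13 G2 and M phase markers at least 2-fold above all other cells. CPM carries no correction for transcript length, so levels are compared between cell sets for 1 gene and not between genes.

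Promoters of 4 members are shown because they hold the letters of the E-box core, which MAX complexes can bind, or of a motif of cell cycle factors, and the levels below are set against cell cycle transcripts. RefSeq (GRCm38.p6) gave a promoter of 300 bases, from 250 before the transcription start to 50 after it, for 6 of the 7 members, Mxi1 having 3. Capitals mark CACGTG, searched on both strands, which read alike, or TTTGGCGC, a form of the motif of the E2F cell cycle factors, searched on both strands. The E2F letters were chosen after the Mycn promoter had been read. The windows lie at chr12:12941787-12942086 (minus strand) for Mycn, chr12:76962199-76962498 (minus strand) for Max, chr5:34187661-34187960 (minus strand) for Mxd4 and chr11:74830674-74830973 (plus strand) for Mnt.
Mycn: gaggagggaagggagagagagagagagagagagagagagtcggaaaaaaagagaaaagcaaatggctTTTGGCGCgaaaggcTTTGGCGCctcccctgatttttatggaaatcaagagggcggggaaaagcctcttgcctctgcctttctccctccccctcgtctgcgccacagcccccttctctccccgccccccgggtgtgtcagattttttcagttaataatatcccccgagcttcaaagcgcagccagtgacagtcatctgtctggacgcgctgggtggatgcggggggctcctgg
Max: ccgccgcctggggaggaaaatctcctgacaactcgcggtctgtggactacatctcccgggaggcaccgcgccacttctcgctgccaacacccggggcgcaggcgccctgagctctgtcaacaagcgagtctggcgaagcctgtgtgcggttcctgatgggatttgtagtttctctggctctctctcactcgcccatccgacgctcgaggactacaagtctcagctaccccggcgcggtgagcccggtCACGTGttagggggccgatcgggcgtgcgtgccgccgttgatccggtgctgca
Mxd4: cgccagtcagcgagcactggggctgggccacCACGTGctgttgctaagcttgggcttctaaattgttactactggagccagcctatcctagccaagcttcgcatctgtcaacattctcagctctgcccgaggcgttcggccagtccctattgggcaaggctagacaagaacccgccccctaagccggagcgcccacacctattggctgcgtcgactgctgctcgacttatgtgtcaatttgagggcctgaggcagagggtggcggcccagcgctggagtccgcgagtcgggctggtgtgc
Mnt: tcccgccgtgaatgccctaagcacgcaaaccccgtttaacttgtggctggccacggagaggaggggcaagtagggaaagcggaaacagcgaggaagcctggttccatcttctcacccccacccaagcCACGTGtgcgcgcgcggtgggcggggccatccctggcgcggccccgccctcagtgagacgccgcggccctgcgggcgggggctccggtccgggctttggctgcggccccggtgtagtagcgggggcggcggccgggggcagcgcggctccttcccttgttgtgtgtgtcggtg
The Mycn promoter held TTTGGCGC at 2 places, with the first base at -183 and -168 from the start, and no CACGTG. Of 32851 promoters of the same length, 0.514% held TTTGGCGC and 0.00609% held it 2 or more times. Because these letters were chosen with the Mycn promoter known, the shares do not measure how unusual that promoter is. CACGTG stood once each in the promoters of Max (-3), Mxd4 (-219) and Mnt (-123), and in 7.15% of all promoters. Neither motif was in the promoters of Mxi1 and Mga. These are matches of letters, not measured sites.

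Mycn, the MYC family member named for neuroblastoma, lies on chromosome 12 (12936093 to 12941914, minus strand, GRCm38) and codes for protein, as do all 7 genes. In kept cells 1373 Mycn UMIs were counted, a level of 242 CPM (230 to 255). The level was 299 CPM (273 to 326) in aliquot 1 and 219 CPM (205 to 234) in aliquot 2, a ratio of 1.36 (1.22 to 1.52). Of 3402 cells, 770 held a Mycn UMI (22.6%, 21.2 to 24.1%), and 371 (10.9%, 9.88 to 12.0%) did after every cell was thinned to 500 UMIs.

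Myc, the founding member and an immediate target of growth signals, lies on chromosome 15 (61985391 to 61990374, plus strand). It had 1533 UMIs in kept cells, 270 CPM (257 to 284), with 329 CPM (302 to 358) in aliquot 1 and 247 CPM (231 to 262) in aliquot 2. A Myc UMI was found in 839 cells (24.7%), and in 404 (11.9%, 10.8 to 13.0%) after thinning. Both genes were thus higher in CPM in the shallower library, whose kept cells had a median of 946 UMIs against 2072 in aliquot 2. Of 10664 genes with enough UMIs, 4.49% were at least 1.5-fold higher in aliquot 1 and 11.1% at least 1.5-fold lower, and neither Mycn nor Myc was among them.

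Max, the shared partner, lies on chromosome 12 (76937269 to 76962201, minus strand) and stood at 143 CPM (134 to 153), with 145 and 143 CPM in the aliquots. Mxd4, an antagonist linked to differentiation (chromosome 5, 34173883 to 34187720, minus strand), stood at 126 CPM (117 to 136). Mnt, a broadly expressed antagonist (chromosome 11, 74830920 to 74845725, plus strand), stood at 61.6 CPM (55.3 to 68.4). Mxi1, also known as Mxd2 (chromosome 19, 53310518 to 53375810, plus strand), stood at 52.4 CPM (46.6 to 58.7). Its level was 66.4 CPM in aliquot 1 and 46.7 CPM in aliquot 2, a ratio of 1.42 (1.11 to 1.81). Mga, a large protein that pairs with MAX within a Polycomb complex (chromosome 2, 119897228 to 119969581, plus strand), stood at 73.6 CPM (66.7 to 81.0). The intervals of the aliquot ratio included 1 for Max, Mxd4, Mnt and Mga.

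Free RNA in droplets can give UMIs in cells that do not express a gene. In barcodes under 200 UMIs, which are too shallow for kept cells, Mycn stood at 147 CPM (117 to 183) and Myc at 169 CPM (137 to 207), below their levels in kept cells. Max, at 155 CPM (124 to 191), Mxd4, at 131 CPM (103 to 165), and Mxi1, at 68.4 CPM (48.4 to 93.8), were there at levels whose intervals overlap those of kept cells. Mnt stood at 57.6 CPM (39.4 to 81.3) and Mga at 55.8 CPM (37.9 to 79.1). In the 67 cells of clusters 7 and 8, at a median of 1988 UMIs against 1418 in all kept cells, a Mycn UMI was found in 0 cells after thinning, which allows a share of cells with a Mycn UMI at that depth of up to 4.48%, and does not limit the share of cells expressing the gene. Myc was found in 2 of the 67 thinned cells, Max in 4 and Mxi1 in 6.

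**Figure D1:**
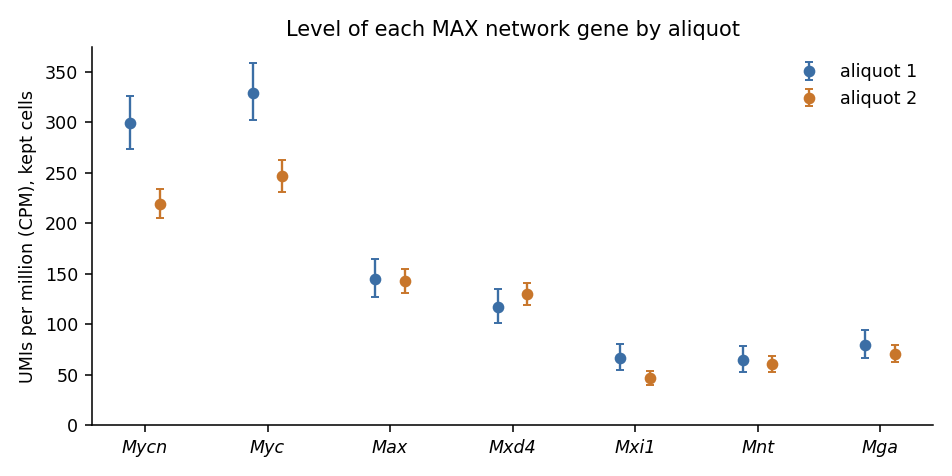
Level of each MAX network gene in kept cells, in CPM, with exact 95% Poisson intervals, for aliquot 1 (1574 cells) and aliquot 2 (1828 cells). Mycn (299 and 219 CPM), Myc (329 and 247 CPM) and Mxi1 (66.4 and 46.7 CPM) were higher in aliquot 1, while the other genes had overlapping intervals.

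Transcripts of Mycn, Myc and Max lay in fewer cells than those of most genes with a like total. Were every UMI drawn in proportion to depth, 1086 cells would have held a Mycn UMI against the 770 that did, a ratio of 0.709, and 1182 a Myc UMI against 839, a ratio of 0.710. Of the genes with UMI totals within 1.5-fold, 37 of 680 were lower than Mycn in this ratio and 36 of 567 lower than Myc. The ratio was 0.744 for Max, with 149 of 1331 genes lower. Mxi1 (0.803) and Mnt (0.812) were a little under the median of genes of like total, which was 0.839 and 0.836, and Mxd4 (0.886) and Mga (0.884) above it. A single cell held up to 11 Mycn, 13 Myc and 20 Max UMIs.

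In reporter cells, Mycn was the member that stood apart. It had 103 UMIs in 38 of the 71 reporter cells, 752 CPM (614 to 912), and 230 CPM (217 to 243) in other cells. The ratio of 3.27 (2.65 to 4.00) is the value Mycn was chosen for. It was 3.08 in aliquot 1 and 3.53 in aliquot 2. Of 1291 genes with at least 20 UMIs in reporter cells, Mycn ranked 5 by ratio. Genes could enter this ranking by being high in reporter cells, and Mycn was chosen for its ratio, so the rank is a description only. Above it stood Nmrk1 (4.17), Lpgat1 (3.78) and Slc25a20 (3.59, with 20 of its 30 UMIs in 1 cell), and Phtf2 (3.07), Cish (3.06) and Arrdc4 (3.05) below. Of these 7 genes Mycn had most UMIs in reporter cells, 103, and the next was Cish, a feedback inhibitor of cytokine signals, with 42. Mycn also had most reporter cells with a UMI, 38 against 23 for Cish, a count not compared at equal UMIs.

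Mycn UMIs lay unevenly over reporter cells, and cells with 3 or more held most of them. Without the reporter cell with most Mycn UMIs the ratio was 2.97. In 33 of the 71 reporter cells no Mycn UMI was found, 14 held 1, 7 held 2 and 17 held 3 or more, the highest having 11. Cells with 3 or more were 23.9% of reporter cells and 3.51% of other cells (117 of 3331). After thinning, a Mycn UMI was found in 25.4% of reporter cells (15.8 to 37.1%) and 10.6% of other cells (9.57 to 11.7%). By number of reporter UMIs it was 230 CPM in cells with 0, 791 CPM (599 to 1024) in the 41 cells with 1 and 708 CPM (519 to 945) in the 30 cells with 2 or more. The intervals of the last 2 overlapped.

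For the other 6 members the interval of the ratio included 1, and the intervals were wide. Myc stood at 328 CPM (240 to 439) in reporter cells and 269 CPM (256 to 283) in other cells, a ratio of 1.22 (0.887 to 1.64). In aliquot 1 that ratio was 1.70 (0.898 to 2.93), from 13 UMIs, and in aliquot 2 it was 1.15 (0.781 to 1.63). Max stood at 124 CPM in reporter cells against 144 CPM in other cells (0.863, 0.50 to 1.39), Mxd4 at 139 against 126 CPM (1.1, 0.660 to 1.74) and Mga at 102 against 72.9 CPM (1.40, 0.760 to 2.38). Mxi1 had 9 UMIs in reporter cells (ratio 1.26, 0.571 to 2.43). Mnt had 3 UMIs in reporter cells, 21.9 CPM (4.52 to 64.0), and 62.6 CPM (56.1 to 69.5) in other cells, a ratio of 0.350 (0.0718 to 1.03). Of the 5 members with enough UMIs, 1 (Mycn) was at least 1.5-fold higher and 0 at least 1.5-fold lower, beside 18.1% of 3428 genes higher and 11.2% lower. Where 10 expected UMIs were required, 7.21% of 2759 genes were higher and 13.9% lower.

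**Figure D2:**
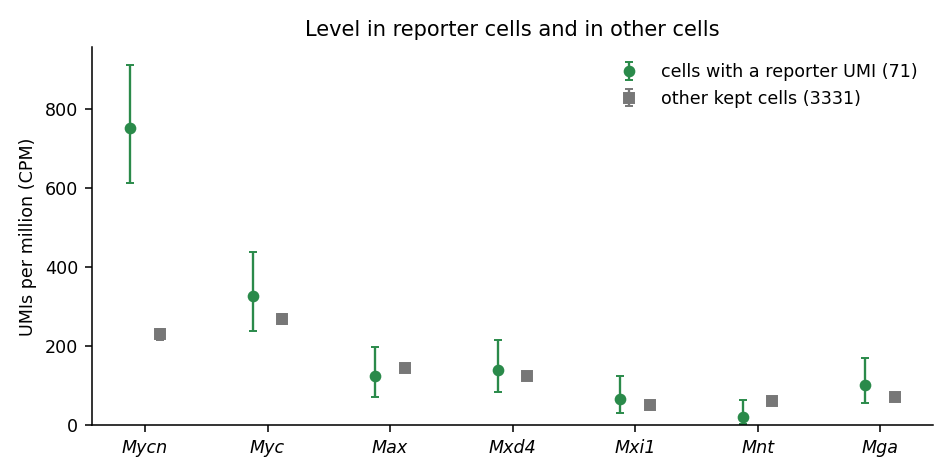
Level of each member in CPM, with exact 95% Poisson intervals, in 71 reporter cells (circles) and in 3331 other kept cells (squares). Mycn stood at 752 CPM in reporter cells and 230 CPM in other cells, and the intervals of both cell sets overlapped for Myc, Max, Mxd4, Mxi1, Mnt and Mga.

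Within every cluster of 0 to 6 and every grade of G2 and M phase or LT-HSC list UMIs the Mycn ratio of reporter to other cells was above 1. In the LT-HSC-like cluster it stood at 883 CPM in 26 reporter cells and 353 CPM in 720 other cells, a ratio of 2.50 (1.78 to 3.44). In cells with 2 or more UMIs of a G2 and M phase list it stood at 589 CPM in 11 reporter cells and 126 CPM in 518 other cells, a ratio of 4.69 (2.61 to 7.89). Over clusters 0 to 6 the ratio ran from 2.11 (0.900 to 4.23, 7 reporter cells in cluster 1) to 5.15 (3.05 to 8.27, 11 reporter cells in cluster 3), and in cells with 4 or more UMIs of the LT-HSC list it was 1.98 (1.00 to 3.57). Granulocyte genes moved with this contrast: the 12 genes of the granulocyte list summed to 591 CPM (469 to 735) in reporter cells, with Mpo, Ctsg, Ltf, S100a8, Cd177 and Lcn2 at 0, and to 2864 CPM (2820 to 2909) in other cells. In the aliquots the sums were 510 and 608 CPM in reporter cells and 3438 and 2627 CPM in other cells. Without clusters 7 and 8 the Mycn ratio was 3.19. Immediate early genes, which cells switch on within minutes of a stimulus or of handling, also moved with it, and so did lists of other cell types. All 13 measured of the list were above 1 and 9 at least 1.5-fold higher, with a median log2 ratio of 0.79, and the 16 genes summed to 4817 CPM in reporter cells and 2943 CPM in other cells. The megakaryocyte list had 4 of 5 measured genes above 1 and a median of 1.36, and summed to 1445 CPM (1251 to 1661) in reporter cells and 1114 CPM (1086 to 1142) in other cells. The list of multipotent and lymphoid-primed progenitors had 0 of 3 above 1 and a median of -1.78, and summed to 453 CPM (347 to 580) in reporter cells, with Cd48, Il7r and Dntt at 0, and 971 CPM (945 to 997) in other cells. Erythroid genes summed to 1226 CPM (1048 to 1426) in reporter cells and 1826 CPM (1791 to 1862) in other cells. Genes could enter the list counts and medians by being high in reporter cells, so these lean upward. The sums take in all measured genes of a list and do not depend on that rule. The part of these lists in the Mycn level was not tested.

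Genes that MYC proteins are known to raise had medians in reporter cells above that of all genes, and so did genes they repress. In both lists of raised genes the share at least 1.5-fold higher lay below that of all genes. As in the ranking above, a gene could enter by being high in reporter cells, which pushes counts and medians upward. Under this rule 18.1% of all genes were at least 1.5-fold higher, and 7.21% where enough UMIs had to be expected. The lists were not compared under the stricter rule, so their medians are a description only. Of 21 measured genes of nucleolus and ribosome assembly, 15 were above 1 and 3 at least 1.5-fold higher, with a median log2 ratio of 0.30. Over all 3428 genes, 1981 were above 1, with a median of 0.10. Of the nucleolar and ribosome assembly genes that entered, Gnl3 and Pes1 were highest. Both entered only by their UMIs observed in reporter cells, since too few were expected there for the stricter rule. Their ratios and intervals are therefore a description only. Gnl3, nucleostemin, stood at 131 CPM in reporter cells against 47.9 CPM in other cells (2.74, 1.60 to 4.42). Pes1, of the large ribosomal subunit's assembly, stood at 131 against 52.4 CPM (2.51, 1.46 to 4.03). Gar1, of the box H/ACA snoRNPs, was lower, at 146 against 247 CPM (0.591, 0.360 to 0.916). Of 31 metabolism and growth genes, 22 were above 1 and 5 at least 1.5-fold higher, with a median of 0.12. Of those that entered, the amino acid transporter Slc7a5 (1.92, 1.06 to 3.22) and the monocarboxylate transporter Slc16a1 (1.92, 1.21 to 2.92) were highest. Of 7 measured genes that MYC represses, 4 were above 1, 2 at least 1.5-fold higher and 0 at least 1.5-fold lower, with a median of 0.44, above both raised lists. Txnip, an inhibitor of glucose uptake among them, was higher, at 2241 CPM in reporter cells against 1535 CPM in other cells (1.46, 1.3 to 1.64).

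In cells in G2 and M phase, both MYC genes were lower. Cells were graded by the number of UMIs of the G2 and M phase list left after thinning to 500 UMIs. Mycn stood at 281 CPM (264 to 299) in the 2377 cells with 0, 223 CPM (192 to 256) in the 496 cells with 1 and 136 CPM (116 to 159) in the 529 cells with 2 or more. The ratio of the highest grade to the lowest was 0.486 (0.408 to 0.575), and 0.486 in each aliquot. Myc stood at 190 CPM (166 to 217) in cells with 2 or more and 294 CPM (276 to 312) in cells with 0, a ratio of 0.647 (0.557 to 0.748). That ratio was 0.509 in aliquot 1 and 0.730 in aliquot 2.

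Of the antagonists, Mxd4 and Mnt were lower in the same cells, and the interval for Mxi1 included 1. Mxd4 stood at 87.2 CPM in cells with 2 or more G2 and M phase UMIs and 131 CPM in cells with 0 (0.665, 0.531 to 0.826). In cells with 2 or more against cells with 0, Mnt stood at 41.4 against 67.2 CPM (0.616, 0.442 to 0.843), with 0.375 in aliquot 1 and 0.742 in aliquot 2. Mxi1 stood at 56.1 against 51.3 CPM, a ratio of 1.09 (0.812 to 1.46). Max was at 119 against 154 CPM (0.773, 0.637 to 0.933) and Mga at 57.8 against 77.2 CPM (0.750, 0.565 to 0.982). Of the 7 members, 4 (Mycn, Myc, Mxd4 and Mnt) were at least 1.5-fold lower and 0 at least 1.5-fold higher, beside 15.8% of 9897 genes lower and 10.3% higher. Over 20 other random thinnings the Mycn ratio ran from 0.462 to 0.586, the Myc ratio from 0.615 to 0.733 and the Mnt ratio from 0.346 to 0.690.

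Markers of granulocytes moved with the G2 and M phase grade: all 12 of the list were detected in both cell sets, and they summed to 7305 CPM (7150 to 7462) in cells with 2 or more and 1689 CPM (1647 to 1731) in cells with 0. The sums were 11508 and 5539 CPM in the aliquots for cells with 2 or more, and 1284 and 1860 CPM for cells with 0. Without clusters 7 and 8 the ratio of the highest grade to the lowest was 0.522 for Mycn and 0.665 for Myc. The LT-HSC markers summed to 1383 CPM in cells with 2 or more and 2831 CPM in cells with 0. The part of the LT-HSC markers in the Mycn level was not tested.

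In S phase Mycn and Myc parted. Among cells with no G2 and M phase UMI, Mycn stood at 333 CPM (304 to 364) in the 1032 cells with 0 S phase UMIs, 277 CPM (244 to 314) in the 600 cells with 1 and 223 CPM (198 to 251) in the 745 cells with 2 or more. Its ratio of highest to lowest grade was 0.671 (0.578 to 0.778), with 0.756 and 0.623 in the aliquots. Myc stood at 347 CPM (316 to 381) in cells with 2 or more and 266 CPM (240 to 294) in cells with 0, a ratio of 1.31 (1.14 to 1.50), with 1.35 and 1.26 in the aliquots. Of UMIs of either gene, Mycn made up 39.2% (35.6 to 42.8%) in cells with 2 or more S phase UMIs and 55.6% (52.2 to 58.9%) in cells with 0. Over both aliquots none of the other 5 members had an interval without 1. Mxd4 stood at 0.655 (0.429 to 0.988) in aliquot 1 and 0.885 (0.681 to 1.15) in aliquot 2, and Mxi1 at 0.555 (0.268 to 1.1) and 0.981 (0.655 to 1.46). In all, 0 of 7 members passed 1.5-fold, beside 10.9% of 10066 genes higher and 12.7% lower.

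This split between both genes depended on the depth of thinning. With cells of at least 1000 UMIs thinned to 1000, the Mycn ratio was 0.998 and the Myc ratio 1.06. Over 20 other thinnings to 500 the Mycn ratio ran from 0.608 to 0.897 and the Myc ratio from 1.08 to 1.55. The LT-HSC markers summed to 2062 CPM in cells with 2 or more S phase UMIs and 3289 CPM in cells with 0, and the granulocyte markers to 2297 CPM in cells with 2 or more and 1771 CPM in cells with 0. Without clusters 7 and 8 the ratios were 0.678 for Mycn and 1.32 for Myc. The part of the LT-HSC markers was not tested.

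Genes raised by MYC were higher in the S phase cells than in cells with no S phase UMI. Of 33 nucleolar and ribosome assembly genes, 27 were above 1 and 11 at least 1.5-fold higher, with a median log2 ratio of 0.50 beside -0.03 over all genes. Nop56, a core protein of box C/D snoRNPs, stood at 222 CPM in cells with 2 or more S phase UMIs against 99.9 CPM in cells with 0 (2.22, 1.81 to 2.73). Of 38 metabolism and growth genes, 36 were above 1 and 16 at least 1.5-fold higher, with a median of 0.47. Srm, spermidine synthase, stood at 136 CPM against 54.7 CPM in the same cell sets (2.49, 1.90 to 3.29), and Shmt2, a mitochondrial enzyme of serine breakdown, at 89.6 against 34.2 CPM (2.62, 1.86 to 3.73). Of 10 genes that MYC represses, 1 was above 1 and 5 were at least 1.5-fold lower, with a median of -0.61. Cdkn1c, the inhibitor p57, stood at 26.5 CPM in cells with 2 or more against 85.5 CPM in cells with 0 (0.310, 0.205 to 0.456), and Txnip at 1349 against 2205 CPM (0.612, 0.577 to 0.649).

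Cells rich in LT-HSC transcripts had more Mycn and less Myc. Cells were graded by the UMIs of the LT-HSC list after thinning, a grading added after the data had been seen. Mycn stood at 193 CPM (175 to 212) in 1152 cells with 0, 242 CPM in 968 cells with 1, 272 CPM in 606 cells with 2, 315 CPM in 347 cells with 3 and 349 CPM (296 to 408) in 329 cells with 4 or more. Myc stood at 279 CPM (258 to 303), 293 CPM, 261 CPM, 218 CPM and 217 CPM (176 to 264) over the same grades. The ratio of highest to lowest grade was 1.81 (1.50 to 2.18) for Mycn, with 1.73 and 1.82 in the aliquots, and 0.776 (0.620 to 0.963) for Myc, with 0.858 and 0.725. Mycn's part of the UMIs of both genes was 61.7% (55.4 to 67.7%) in cells with 4 or more and 40.8% (37.8 to 43.9%) in cells with 0.

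Among cells with no G2 and M phase UMI the ratios were 1.56 (1.26 to 1.92) for Mycn and 0.793 (0.623 to 1.00) for Myc. Over all kept cells Max, at 0.897 (0.667 to 1.19), Mxd4, at 1.08 (0.802 to 1.45), Mxi1, at 0.701 (0.395 to 1.17), Mnt, at 0.791 (0.467 to 1.27), and Mga, at 1.31 (0.903 to 1.87), had intervals that include 1. Some of these rested on 1 library or 1 thinning. Mxd4 stood at 1.74 (1.01 to 2.91) in aliquot 1 and 0.897 (0.611 to 1.28) in aliquot 2, and Mnt at 0.431 (0.112 to 1.19) in aliquot 1 and 0.983 (0.537 to 1.69) in aliquot 2. The Mxi1 ratio lay outside its range over 20 other thinnings, which was 0.724 to 1.69 with a median of 1.12. Of the 7 members, 1 (Mycn) was at least 1.5-fold higher and 0 at least 1.5-fold lower, beside 11.9% of 7033 genes higher and 18.5% lower. Over 20 other thinnings the Mycn ratio ran from 1.50 to 2.00 and the Myc ratio from 0.549 to 0.953. Granulocyte markers summed to 630 CPM (559 to 708) in cells with 4 or more, with Ctsg and Cd177 at 0, and 4501 CPM (4412 to 4591) in cells with 0. Without clusters 7 and 8 the ratios were 1.72 for Mycn and 0.751 for Myc.

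The MYC-raised lists were lower in these Mycn-rich cells. Of 30 nucleolar and ribosome assembly genes, 2 were above 1 in cells with 4 or more LT-HSC UMIs over cells with 0, and 14 were at least 1.5-fold lower, with a median log2 ratio of -0.50 beside -0.04 over all genes. Pa2g4, a growth-regulated RNA-binding protein, stood at 172 CPM in cells with 4 or more against 301 CPM in cells with 0 (0.572, 0.445 to 0.725). Of 37 metabolism and growth genes, 8 were above 1 and 19 at least 1.5-fold lower, with a median of -0.60. Nme1, a nucleoside diphosphate kinase, stood at 58.1 against 236 CPM (0.246, 0.159 to 0.365). The glucose transporter gene Slc2a1 was higher, at 51.4 against 22.5 CPM (2.28, 1.33 to 3.82). Of 10 MYC-repressed genes, 6 were above 1, 4 at least 1.5-fold higher and 3 at least 1.5-fold lower, with a median of 0.34: Cdkn1c stood at 150 CPM in cells with 4 or more against 29.4 CPM in cells with 0 (5.09, 3.56 to 7.29) and Txnip at 2662 against 1071 CPM (2.49, 2.32 to 2.67). Cell cycle genes moved with this grading: 0 of 35 S phase genes and 0 of 34 G2 and M phase genes were above 1, with medians of -1.67 and -1.91. Their part in the MYC lists was not tested, and these list values were not recomputed over other thinnings.

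**Figure D3:**
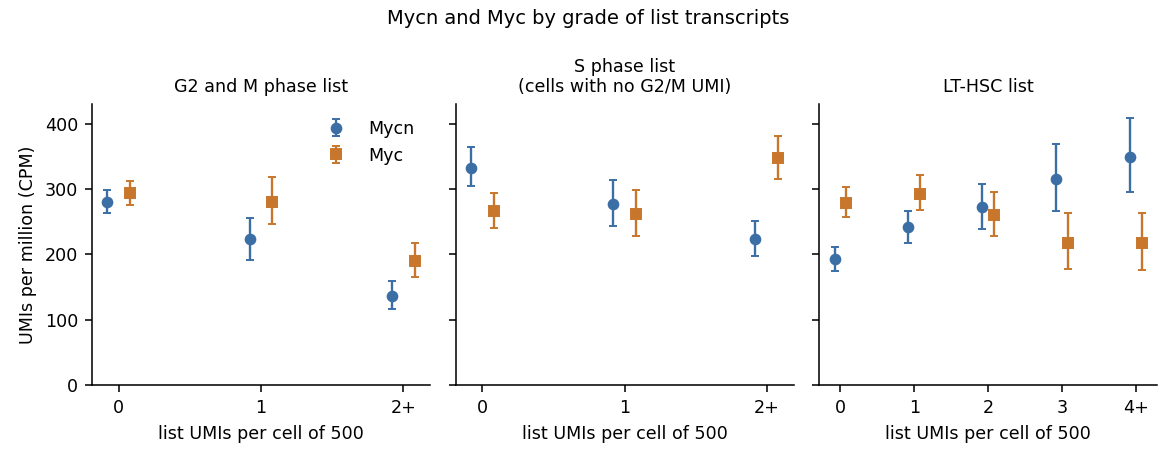
Mycn (circles) and Myc (squares) in CPM, with exact 95% Poisson intervals, in cells graded by UMIs of a list after thinning to 500 UMIs: G2 and M phase (left), S phase among cells with no G2 and M phase UMI (middle) and LT-HSC (right). Mycn was lowest in the top grade of both cell cycle lists (136 and 223 CPM) and highest in the top grade of the LT-HSC list (349 CPM), while Myc was highest in cells with 2 or more S phase UMIs (347 CPM).

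Across clusters, which were made without the MAX and MLX network genes, Mycn was highest, with the libraries pooled, where LT-HSC genes led. In the LT-HSC-like cluster 0 Mycn stood at 374 CPM (340 to 410), against 206 CPM in all other cells, a ratio of 1.82 (1.62 to 2.03). Cluster 4, led by immediate early genes, stood at 295 CPM (254 to 339). The unnamed clusters 5, 2, 1 and 6 stood at 265, 243, 217 and 216 CPM, with intervals that overlap. Cluster 3, led by G2 and M phase genes, stood at 130 CPM (111 to 152), below the intervals of all these. Cluster 7 had 1 Mycn UMI and cluster 8 had 0.

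The order depended on the library, and clusters take different shares of their cells from each. In aliquot 1 Mycn was highest in cluster 4, at 447 CPM (357 to 553), followed by cluster 0 at 396 CPM (322 to 483), whose interval overlaps it, and by clusters 6, 2, 5, 1 and 3 at 347, 300, 300, 264 and 192 CPM. In aliquot 2 it was highest in cluster 0, at 368 CPM (331 to 408), followed by clusters 5, 4, 1, 2, 6 and 3 at 251, 231, 197, 187, 145 and 108 CPM. Cluster 3 was thus lowest of clusters 0 to 6 in both libraries. The ratio of cluster 0 over all other cells was 1.41 (1.12 to 1.76) in aliquot 1 and 2.15 (1.87 to 2.46) in aliquot 2.

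Myc followed another order. It was highest in clusters 5, at 373 CPM (323 to 429), and 1, at 345 CPM (310 to 382), both unnamed. Clusters 2, 4 and 6 stood at 301, 288 and 269 CPM, with overlapping intervals. Cluster 3 stood at 228 CPM (202 to 257) and cluster 0 at 205 CPM (181 to 232), a ratio for cluster 0 over all other cells of 0.711 (0.619 to 0.815). That ratio was 0.881 (0.679 to 1.13) in aliquot 1 and 0.683 (0.578 to 0.804) in aliquot 2. In aliquot 1 cluster 1 was highest, at 500 CPM (425 to 585), and in aliquot 2 cluster 5, at 348 CPM (291 to 413). Mycn made up 64.6% (60.9 to 68.1%) of the UMIs of both genes in cluster 0, and between 36.3% (cluster 3) and 50.5% (cluster 4) in clusters 1 to 6. The gap lay in aliquot 2, where the share was 66.9% (62.7 to 70.8%) in cluster 0 and between 32.1% and 46.3% in clusters 1 to 6. In aliquot 1 it was 57.3% (49.5 to 64.8%) in cluster 0, beside 57.0% in cluster 4, 55.6% in cluster 6 and 51.9% in cluster 2.

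Among clusters 0 to 6 the other members had these ranges. Max ran from 120 CPM (cluster 3) to 188 CPM (cluster 5), Mga from 68.5 CPM (clusters 3 and 6) to 89.4 CPM (cluster 4) and Mnt from 48.7 CPM (cluster 3) to 85.3 CPM (cluster 2). Mxd4 was lowest in cluster 3, at 81.7 CPM (66.4 to 99.4), and highest in cluster 2, at 173 CPM (137 to 215). Mxi1 was lowest in cluster 1, at 23.7 CPM (15.3 to 35.0), and highest in cluster 5, at 78.4 CPM (56.5 to 106).

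In the granulocyte-marker clusters 7 and 8 the set took a different shape. Mycn had 1 UMI among 154416, a ratio of 0.0260 (0.000658 to 0.145) over all other cells, and Myc had 14 UMIs (0.329, 0.179 to 0.554). Mxi1 was higher there, with 19 UMIs, 123 CPM (74.1 to 192), and a ratio of 2.44 (1.45 to 3.88). Of its 19 UMIs, 17 were in the 34 cells of cluster 7. Max stood at a ratio of 0.672 (0.374 to 1.12), Mxd4 at 0.507 (0.242 to 0.938), Mga, with 3 UMIs, at 0.259 (0.0531 to 0.761) and Mnt, with 2 UMIs, at 0.206 (0.0248 to 0.749).

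**Figure D4:**
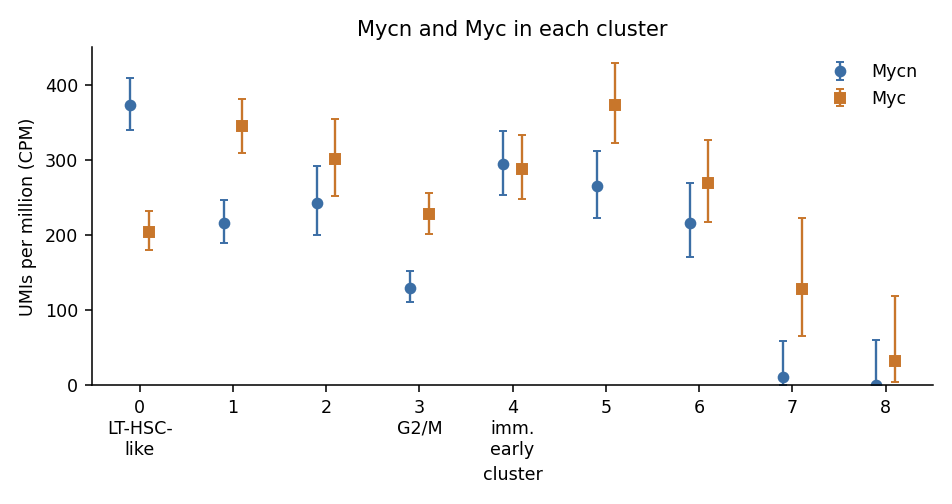
Mycn (circles) and Myc (squares) in CPM, with exact 95% Poisson intervals, in each of 9 clusters; clusters without a name carry a number only. Both libraries are pooled: Mycn was then highest in the LT-HSC-like cluster 0 (374 CPM, Myc 205 CPM; in aliquot 1 alone in cluster 4) and Myc in cluster 5 (373 CPM, Mycn 265 CPM), and both were lowest in clusters 7 and 8.

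Among the genes whose levels ran most like Mycn over 15 points of cluster and aliquot with at least 20 cells were Wdr31 (Pearson r of log2(CPM + 10) 0.98), Kcnk5, Ccnd2 and Afap1l1 (0.97 each). Ccnd2 encodes cyclin D2. For Myc they were Fam69b (0.96), 2410002F23Rik (0.95), Trmt112, Nrip1 and Smarcb1 (0.94 each). Points share libraries and depth, and the clusters with granulocyte markers stretch the range. Without those clusters, over 14 points, r was 0.93 for Kcnk5 and between 0.78 and 0.84 for the other named genes like Mycn, and between 0.69 and 0.77 for the genes like Myc. Between Mycn and Myc themselves r was 0.85 over 15 points and 0.22 over 14.

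Mycn and Myc were found together in cells with no detectable excess or deficit over their separate shares. Of cells thinned to 500 UMIs, 371 held Mycn, 404 held Myc and 46 held both, against 45.1 expected, a ratio of 1.02 (0.747 to 1.36). It was 1.16 (0.792 to 1.63) in aliquot 1 and 0.804 (0.439 to 1.35) in aliquot 2. With 2310 cells thinned to 1000 UMIs, 85 held both against 77.7 expected (1.09, 0.873 to 1.35). The intervals leave room for a moderate excess or deficit. Within the LT-HSC-like cluster, both were found in 8 thinned cells, against 8.47 expected (0.944, 0.408 to 1.86).

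Of the 21 pairs among the 7 members, 12 were above 1 at 500 UMIs and 0 had an interval without 1. At 1000 UMIs 15 were above 1, and the interval left out 1 for Max and Mxd4 only, with 41 cells against 26.5 expected (1.55, 1.11 to 2.10). At 500 UMIs that pair stood at 1.37 (0.781 to 2.22), and between 0.577 and 1.39 over 20 other thinnings. Mnt and Mga were found together in 0 cells at 500 UMIs, against 3.43 expected, and in 10 at 1000 UMIs, against 7.81 expected.

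**Figure D5:**
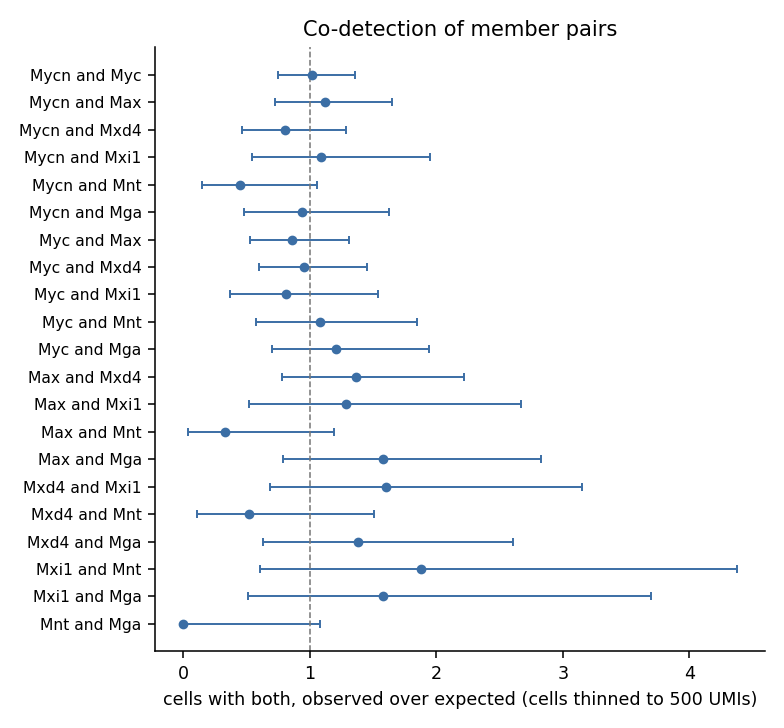
Cells holding both members of a pair, observed over expected within aliquots, with exact 95% Poisson intervals, for the 21 pairs among 3402 cells thinned to 500 UMIs; the dashed line marks a ratio of 1. All 21 intervals include 1, and Mycn and Myc stood at 1.02.

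Cells caught with a Mycn UMI leaned to LT-HSC genes. After thinning, 371 cells with a Mycn UMI were set against 3031 with none, Mycn itself left out. Of 3759 genes, 4.23% were at least 1.5-fold higher and 8.75% at least 1.5-fold lower. The LT-HSC list had 8 of 11 genes above 1, with a median log2 ratio of 0.29 beside -0.02 over all genes. Of the 11, 2 (Vwf and Mllt3) were at least 1.5-fold higher and 1 at least 1.5-fold lower. Vwf, von Willebrand factor, stood at 130 CPM in cells with a Mycn UMI against 56.7 CPM in cells with none (2.29, 1.39 to 3.63), and Mllt3, a regulator of stem cell maintenance, at 319 against 193 CPM (1.66, 1.23 to 2.20). The immediate early list had 9 of 11 above 1, with a median of 0.26: Junb stood at 313 against 175 CPM (1.79, 1.33 to 2.39). The S phase list had 6 of 21 above 1, with a median of -0.16, the nucleolar and ribosome assembly list 5 of 20 (-0.13) and the metabolism and growth list 15 of 33 (-0.12). Over 20 other thinnings the median ran from 0.05 to 0.30 (middle value 0.15) for the LT-HSC list and from -0.49 to -0.16 for the S phase list. For the immediate early list it ran from -0.06 to 0.33 (middle value 0.16), so its direction did not hold in all thinnings. The median ran from -0.25 to 0.04 for the nucleolar and ribosome assembly list and from -0.16 to 0.08 for the metabolism and growth list, so neither had a steady direction. Within aliquots the metabolism and growth list had 14 of 22 above 1 (median 0.04) in aliquot 1 and 13 of 21 (0.12) in aliquot 2, and the nucleolar and ribosome assembly list 7 of 13 (0.01) and 4 of 10 (-0.13). The G2 and M phase list had a median of -0.15, outside its range of -0.98 to -0.23 over those thinnings.

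In the thinning used for this split, cells caught with a Myc UMI leaned to S phase genes. Set against 2998 cells with none, the 404 cells with a Myc UMI had 17 of 22 S phase genes above 1, with a median log2 ratio of 0.34 beside 0.00 over all 4026 genes. Ung, uracil DNA glycosylase, stood at 184 CPM in cells with a Myc UMI against 73.4 CPM in cells with none (2.50, 1.68 to 3.66), and Usp1, a deubiquitinase of DNA repair, at 179 against 105 CPM (1.70, 1.15 to 2.45). The G2 and M phase list had 1 of 14 above 1 (median -0.49) and the LT-HSC list 2 of 11 (-0.28), in which Ly6a, the Sca-1 gene, stood at 184 against 278 CPM (0.660, 0.458 to 0.925). In this thinning the MYC lists lay nearer to all genes: the nucleolar and ribosome assembly list had 11 of 21 above 1 (median 0.00), the metabolism and growth list 19 of 33 (0.12) and the MYC-repressed list 4 of 8 (-0.04). Slc16a1, the lactate transporter, stood at 134 against 58.0 CPM (2.31, 1.44 to 3.59), and Txnip at 1474 against 1873 CPM (0.787, 0.696 to 0.887). In cells with a Mycn UMI against cells with none, Txnip stood at 2092 against 1793 CPM (1.17, 1.05 to 1.3). Among all genes 5.14% were at least 1.5-fold higher and 7.92% at least 1.5-fold lower. Over 20 other thinnings the median ran from -0.01 to 0.35 for the S phase list (middle value 0.14) and from -0.50 to -0.04 for the LT-HSC list. It ran from -0.03 to 0.29 (middle value 0.15) for the nucleolar and ribosome assembly list and from 0.04 to 0.20 (0.11) for the metabolism and growth list. For the MYC-repressed list it ran from -0.44 to 0.06, and over all genes from -0.01 to 0.01. The S phase list and the MYC-raised lists were thus not set apart over thinnings.

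Among the other members, Mnt alone had an interval without 1 in these splits. In cells with a Mycn UMI against cells with none, Myc stood at 319 against 298 CPM (1.07, 0.801 to 1.40) and Max at 146 against 140 CPM (1.04, 0.672 to 1.56). Mnt, with 5 UMIs, stood at 27.0 against 69.3 CPM (0.390, 0.124 to 0.939), but between 0.473 and 1.40 over 20 other thinnings. In cells with a Myc UMI all 6 other members had intervals that include 1. Granulocyte markers moved with both splits. They summed to 554 CPM in cells with a Mycn UMI, with Ctsg, Ltf and Cd177 at 0, and 3067 CPM in cells with none, and to 616 CPM in cells with a Myc UMI, with all 12 detected, and 3099 CPM in cells with none. Their part in the list medians was not tested.

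Of 6 other genes of the MAX and MLX networks, Mlxip, a glucose-responsive partner of MLX, stood at 61.0 CPM (54.8 to 67.8) in kept cells, Mxd1 at 31.1 CPM (26.6 to 36.0) and Mlx at 28.1 CPM (23.9 to 32.8). Mxd3 had 38 UMIs, Mlxipl 9 and Mycl, the third MYC gene, 4.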

How the data were processed

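Transcripts of single cells were counted in 1 pool, sequenced as 2 technical aliquots. The deposited files hold UMI counts, raw whole numbers per feature and barcode with no normalization by the authors, per the file headers and values. Bowtie 1.1.1, RSEM 1.3.0 and SAMtools 1.3.1 are named with the build GRCm38 in the submitters' processing notes, and their settings are not given in the sources used here. Kept cells had at least 500 UMIs, the GFP row left out, and at most 20% mitochondrial UMIs: 1574 of 2147 barcodes in aliquot 1 (median 946 UMIs) and 1828 of 8662 in aliquot 2 (median 2072). Of 461 barcode names found in both libraries, 55 were kept in both, so 110 cells may share a droplet barcode. Scrublet marked 21 cells (0.617%), none with a GFP UMI, and they were left in.

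Summed counts were scaled to a total of 1000000 (CPM). All intervals are exact at 95% (Poisson for CPM, conditional binomial for ratios, Clopper-Pearson for shares) and cover counting error only. Because the pool is the unit and there is 1, groups were compared without a test. Classes of cells were made after thinning each cell to 500 UMIs, and levels in those classes come from all their UMIs. Cells with and without a Mycn or Myc UMI were compared on the thinned counts. Expected co-detection is the product of both shares within an aliquot, added over aliquots. For shares of genes past 1.5-fold, a gene needed 10 UMIs expected in the smaller set, or for the reporter comparison 10 observed or expected. Clusters were made in scanpy 1.11.5 (Leiden, leidenalg 0.10.2, resolution 1.0, 2000 variable genes, 30 components, 15 neighbours) without GFP and without genes of the MAX and MLX networks. A cluster was named from at least 3 markers of a list at least 2-fold above all other cells, where no other list had as many. Clusters with at least 3 such granulocyte markers, which were 7 and 8, were left unnamed. By the count of markers alone both would have been named for G2 and M phase. Positions are from GENCODE vM21, and promoters from RefSeq. The calculation of ratios was tested on simulated counts of reporter and other cells: the true value lay inside the interval for 95.7% of 2559 genes with no change, 96.0% of 100 genes at 2 times and 93.0% of 100 genes at 0.500 times. Bursts of real cells were not simulated.

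Genes other than the members were named by rule: in each MYC list, the 4 with most UMIs and the 3 highest and 3 lowest ratios of a comparison. Genes of the LT-HSC, immediate early and S phase lists were named by the same rule, extended to those lists after their values were seen. Beside Mycn in the reporter ranking stand the 3 next in ratio on either side. Genes like Mycn or Myc are the 5 with the highest Pearson r over clusters and aliquots, of which 1 is not reported here. The members and lists were chosen with earlier results of these data known. Calculations ran in scipy 1.17.1 and pandas 2.3.3 under Python 3.11.15, with numpy 2.4.6, and figures in matplotlib 3.10.9.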

Additional observations from a re-analysis of the deposited data

How the results depend on the processing

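Over 440 recomputed values under the alternatives, 382 moved by less than their counting interval or, for counts of genes, stayed within 1.5 times. The other 58 moved further. Of the ratios past 1.5-fold in the main setting, 0 changed direction. Levels, counts of genes and smaller ratios could not enter that count, and most alternatives reuse the same cells. The level of Mycn was 219 to 299 CPM and that of Myc 247 to 329 CPM with 1 aliquot left out, and 268 CPM for Mycn with cells weighted equally. In reporter cells over other cells Mycn stood at 2.50 within the LT-HSC-like cluster, and Myc at 1.15 to 1.70 with 1 aliquot left out. Co-detection of both was 0.694 in the lowest of 20 other thinnings. For G2 and M phase, Mycn reached 0.586 in the highest thinning, and Myc was 0.509 to 0.730 with 1 aliquot left out. For S phase, Mycn was 0.998 with thinning to 1000 UMIs and 0.897 in the highest thinning. Myc was 1.06 with thinning to 1000 UMIs, 1.13 over all cells, and 1.08 and 1.55 in the lowest and highest thinning. For the LT-HSC list the lowest thinning gave 1.50 for Mycn and 0.549 for Myc. The LT-HSC-like cluster over other cells was 1.41 to 2.15 for Mycn and 0.683 to 0.881 for Myc with 1 aliquot left out.

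Counts of genes past 1.5-fold moved most. Beside a Mycn UMI, 159 genes were higher and 329 lower. These were 72 to 110 and 146 to 203 with 1 aliquot left out, 322 and 562 with thinning to 1000 UMIs, and 1850 and 1850 with 1 UMI expected, and 213 were lower in cells of at least 1000 UMIs. Beside a Myc UMI, 207 were higher and 319 lower. These were 88 to 112 and 146 to 192 with 1 aliquot left out, 318 and 573 with thinning to 1000 UMIs, and 1792 and 1870 with 1 UMI expected, and 122 were higher in cells of at least 1000 UMIs. Fewer cells or a lower minimum change how many genes enter, and the cause of the other moves was not tested. At the lower Leiden resolution no cluster was LT-HSC-like, so that alternative gave no value. The thinning ranges, the LT-HSC grading and the removal of shared barcode names were added after the data had been seen. No paired analysis was possible because the aliquots are technical parts of 1 pool and no result comes from a test. With 71 reporter cells, the intervals of Mnt and Mxi1 there rest on 3 and 9 UMIs.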
